A study of Mus musculus with 47 samples.

Results

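The genes described here are 10 genes outside the classical myelin set: the lipid transporter gene Abca8a, the metabolic enzyme genes Carns1, Car14 and Chdh, the adhesion and matrix genes Itgb4, Ninj2, Adamtsl4 and Sspo, and the cytoskeletal regulator genes Ppp1r14a and Pdlim2. They were selected on their expression values in these data, as genes low while mice ate cuprizone and high again in recovery. Callosal values were among those used, and whether values of the other regions were is not recorded, so the callosal values are given as a description with no test. Abca8a, Adamtsl4, Carns1, Itgb4, Ppp1r14a and Sspo are in addition among the genes that the study lists as common to its callosal recovery comparisons. All 10 were found by symbol among the 23393 genes of the acute table and the 21034 genes of the chronic tables, and all 10 passed the filter on low values that left 14536 and 17054 genes for testing.

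Bulk mRNA sequencing was done on microdissected brain tissue of wild-type C57BL/6 mice of both sexes fed chow with cuprizone, a copper chelator that kills oligodendrocytes. In the acute paradigm, corpus callosum was taken after 3 weeks of cuprizone (3wk, n = 3), after 5 weeks of cuprizone and 1 week of normal chow (5+1wk, n = 3), and from 1 untreated mouse aged 2 months. In the chronic paradigm, mice ate cuprizone for 12 weeks (12wk) and then normal chow for 4, 8 or 12 weeks (12+4wk, 12+8wk and 12+12wk), against untreated mice aged 8 months (naive). The 12wk, 12+4wk, 12+8wk, 12+12wk and naive groups held 2, 2, 3, 2 and 3 callosal, 3, 3, 2, 2 and 3 hippocampal, and 3, 3, 3, 2 and 4 cortical libraries. The 12+12wk libraries were all labelled female, although the sex-linked genes of hippocampal replicate 1 went against this. The groups also differ in age, which cannot be told apart from recovery time. The study's feeding ages put the 12wk mice below the 8 months of the naive mice. Age and cuprizone therefore cannot be told apart in 12wk minus naive either. The study describes the acute libraries of a time as separate mice. Whether the chronic libraries of a group are separate mice, and whether regions of 1 mouse were sequenced together, is not stated in the sources used here, so the p-values measure the spread between these libraries.

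Myelin in the brain is made by oligodendrocytes, which arise from progenitor cells, pass through a newly formed stage and then wrap axons. Cuprizone kills the mature cells, most of all in the corpus callosum, and when it is withdrawn new oligodendrocytes mature and rebuild myelin, so transcripts carried mainly by mature oligodendrocytes fall and return with the cells. In bulk tissue, fewer cells of a type and less RNA per cell cannot be told apart. Abca8a encodes an ATP-binding cassette transporter of a lipid-handling subfamily. Carns1 makes carnosine, Car14 is a membrane-bound carbonic anhydrase, and Chdh oxidises choline in mitochondria. Itgb4 is the beta subunit that pairs with integrin alpha 6 to bind laminin, and Ninj2 (ninjurin 2) is a homophilic adhesion protein known from injured nerve. Adamtsl4 is a secreted ADAMTS-like glycoprotein without protease activity, and Sspo is SCO-spondin, a giant glycoprotein best known as the secretion of the subcommissural organ. Ppp1r14a (CPI-17) inhibits myosin phosphatase when phosphorylated by protein kinase C, and Pdlim2 is a PDZ and LIM domain protein of the actin cytoskeleton.

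The 10 genes are spread over 6 chromosomes of the GRCm38 build in the GENCODE M21 annotation. Adamtsl4 (chr3:95676201-95687917, minus strand) and Car14 (chr3:95897768-95904691, minus strand) are on the same chromosome. Sspo (chr6:48448229-48501250, plus strand), Ninj2 (chr6:120093350-120200339, plus strand), Ppp1r14a (chr7:29289308-29293801, plus strand), Abca8a (chr11:110025634-110095978, minus strand), Itgb4 (chr11:115974709-116008412, plus strand), Chdh (chr14:30009023-30040527, plus strand), Pdlim2 (chr14:70164218-70177681, minus strand) and Carns1 (chr19:4164324-4175479, minus strand) are all protein coding. Carns1 shares 1825 exon bases with Gm17552 on the opposite strand and 1345 with AC109138.8 on its own strand, Chdh shares 589 with Cacna1d, Itgb4 shares 537 with B230344G16Rik and Car14 shares 445 with Aph1a, these last 3 on the opposite strand. Of the 40-base stretches of the longest transcript, 35% in Carns1, 24.4% in Car14, 9.73% in Chdh and 5.69% in Itgb4 occur in such a gene too, and whether the counting used strand is not given in the sources used here, so part of their signal may belong to the partner. Abca8a shares 2.42% of its stretches with Abca8b and Gm11697.

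RefSeq promoters (GRCm38.p6) were at hand for 7 of the 10 genes, in 9 windows because Chdh has 3 starts, and were searched because the genes moved together. The motifs searched on both strands of the 250 bases before the start were ACAAAG and ACAATG (SOX factors), CTGGCAC and CTGGTAC (MYRF) and CAGCTG (the E-box of OLIG and ASCL factors). The windows printed 5′ to 3′, with matches in capitals, are 3 that hold no annotated exon base: that of Sspo (chr6:48447924-48448173, plus strand), which held the most matches, that of the start of Chdh farthest into the gene (chr14:30022383-30022632, plus strand), which held 1, and that of Adamtsl4 (chr3:95687918-95688167, minus strand), which held none.
Sspo: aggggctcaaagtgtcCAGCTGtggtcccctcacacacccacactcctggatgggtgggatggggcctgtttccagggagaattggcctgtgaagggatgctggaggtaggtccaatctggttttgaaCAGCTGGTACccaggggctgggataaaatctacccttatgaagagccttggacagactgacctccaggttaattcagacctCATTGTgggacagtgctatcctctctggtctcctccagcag
Chdh: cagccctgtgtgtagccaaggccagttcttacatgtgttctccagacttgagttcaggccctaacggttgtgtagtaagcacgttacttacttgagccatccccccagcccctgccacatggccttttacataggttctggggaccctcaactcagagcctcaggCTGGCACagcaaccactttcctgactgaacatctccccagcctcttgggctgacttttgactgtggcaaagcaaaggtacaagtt
Adamtsl4: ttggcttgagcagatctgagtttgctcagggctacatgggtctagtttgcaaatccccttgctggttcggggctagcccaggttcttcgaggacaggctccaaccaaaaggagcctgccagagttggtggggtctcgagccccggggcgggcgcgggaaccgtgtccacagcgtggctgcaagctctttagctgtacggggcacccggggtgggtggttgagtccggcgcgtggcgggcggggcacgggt
The Sspo window held CAGCTG at 234 and 122 bases before the start, CTGGTAC at 119 bases, overlapping the second E-box, and ACAATG on the other strand at 41 bases. The Chdh window held CTGGCAC at 85 bases before the start. Elsewhere CAGCTG was found once, in Ninj2, and ACAAAG once, at another start of Chdh. The windows of Adamtsl4, Car14, Ppp1r14a, Abca8a and the first start of Chdh held no match. Among 32851 promoter windows of the same length, CAGCTG was found in 13%, ACAAAG in 16.5%, ACAATG in 10.7%, CTGGCAC in 4.19% and CTGGTAC in 1.83%. The 9 windows of these genes held them in 2, 1, 1, 1 and 1 cases, in the same order of motifs.

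Some facts of the libraries touch the results. The values are log2 normalized expression with no counts, so the depth behind them is unknown. In the chronic tables each gene was centred, so a value says how far a library lies from the gene's own centre, and levels of different genes cannot be compared. How the values were centred is not given in the sources used here. A centre shared by the 3 regions is inferred, and the comparisons between regions of naive mice depend on it. The hippocampal marker Prox1 had a median of 0.78 in hippocampus, against -0.38 in callosum and -0.54 in cortex. In 8 of 13 hippocampal libraries Xist (-2.37 to -1.23) and the mean of 4 Y-linked genes (0.52 to 0.79) lay near the middle between male and female levels, and 2 callosal libraries had raised Y-linked genes (-0.57 and -0.19, against -1.55 on average in females), so these libraries went against their labels of a single sex. Whether such a library holds the values of 1 sample or an average over more was not tested. The number of separate samples behind each hippocampal and callosal n is therefore uncertain. The 8 were 12wk replicates 1 and 3, 12+4wk replicates 1 and 3, both 12+8wk libraries, 12+12wk replicate 1 and naive replicate 3. Of the callosal and hippocampal values, 44.0% and 44.0% lay near the midpoint between steps of the ninth decimal, against 0% of cortical values. The median residual SD was 0.13 in callosum and 0.10 in hippocampus, against 0.18 in cortex. The study gives shorter reads from another instrument for cortex, so region and sequencing cannot be told apart in comparisons with cortex.

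In the acute callosum the 10 genes were all low at 3 weeks and high at 5+1 weeks. Columns were assigned by the headers of the study's table of the same values, where 1999 of 1999 genes compared were equal within 0.001 for each of the 7 libraries. This order differs from that of the sample descriptions, under which the median difference over the 10 genes was 1.12 for 5+1wk over 3wk, in place of 2.02, and 0.24 for 3wk over naive, in place of -1.59, so the acute values hold only for the order of the headers. Xist and Y-linked genes matched the labelled sex in 6 of 7 libraries in the order of the headers and in 2 of 7 in the order of the descriptions. Ppp1r14a had log2 values of 9.04, 7.64 and 8.34 at 5+1wk, against 5.91, 4.53 and 4.67 at 3wk, and 7.65 in the naive library. Its difference was 3.30 ± 0.47 (SE), or 9.87-fold, and the groups did not overlap. Ninj2 had 4.93, 4.41 and 4.85 at 5+1wk, against 2.14, 1.61 and 2.44 at 3wk, and 4.26 in the naive library. The difference was 2.67 ± 0.30, and the groups did not overlap. Every 3wk value of Ninj2 lay below the level of the acute filter, a mean linear value of 10. Ninj2 thus passed that filter through its other libraries, and the size of its difference rests on low values. Sspo had 6.39, 5.43 and 5.42 at 5+1wk, against 4.86, 2.42 and 2.81 at 3wk, and 4.35 in the naive library. Replicate 1 of the 3wk group was high for Sspo, above the naive library, and that gene had the widest error (2.39 ± 0.64). The 3wk values of 2.42 and 2.81 for Sspo were below the filter level too. Pdlim2 (2.33 ± 0.35), Itgb4 (2.16 ± 0.37), Adamtsl4 (1.88 ± 0.33), Car14 (1.51 ± 0.24), Carns1 (1.32 ± 0.23) and Chdh (1.14 ± 0.32) followed, and Abca8a was the smallest at 0.99 ± 0.31. All 10 genes had every 5+1wk library above every 3wk library, as did 20.9% of all genes tested, which is given as a description because these values chose the genes.

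**Figure D1:**
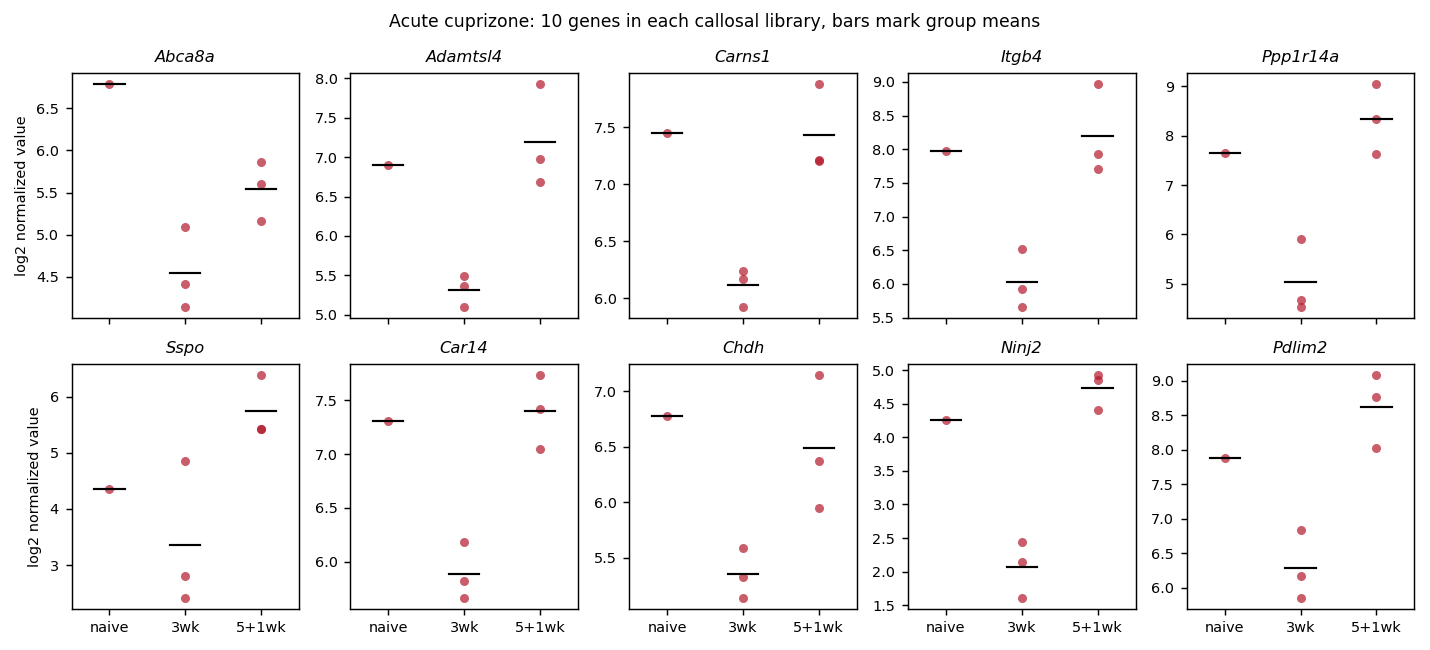
Log2 normalized value of each gene (one panel per gene) in each acute callosal library, by group from naive (1 library) to 3wk and 5+1wk (3 libraries each), with bars at the group means. In every panel the 3 libraries at 5+1wk lie above the 3 at 3wk, and Abca8a alone lies below the naive library in all 3, at 5.60, 5.17 and 5.86, against 6.78.

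Against the single naive library, 9 of the 10 genes were lower in every 3wk library, Sspo being the exception, and the differences ran from -2.61 for Ppp1r14a to -0.99 for Sspo. At 5+1wk the genes parted. Abca8a was 5.60, 5.17 and 5.86 at 5+1wk, against 6.78 in the naive library, a difference of -1.24 ± 0.44. Sspo (1.40 ± 0.91), Pdlim2 (0.74 ± 0.49) and Ninj2 (0.47 ± 0.43) were above the naive library in all 3 libraries. The other 6 lay on both sides of it. One naive library has no spread of its own, so these differences carry no replicate check on that side. The share of all genes with every 3wk or 5+1wk library on the same side of it was not counted.

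In the chronic callosum all 10 genes were lower at 12 weeks of cuprizone than in naive mice, by -2.03 to -0.92 on the log2 scale, with a median of -1.34 over the genes and 0.00 over all genes tested. Abca8a was -1.18 and -1.33 at 12wk, against 0.90, 0.75 and 0.43 in naive mice, a difference of -1.95 ± 0.20. Ppp1r14a was -1.12 and -0.81 at 12wk, against 1.73, 0.88 and 0.60 in naive mice, a difference of -2.03 ± 0.26. The groups of both genes stood apart, and naive replicate 1 was the highest of its group for each. Adamtsl4 (-1.54 ± 0.23), Carns1 (-1.47 ± 0.23), Itgb4 (-1.45 ± 0.22), Ninj2 (-1.23 ± 0.19), Car14 (-1.12 ± 0.24) and Pdlim2 (-1.03 ± 0.20) came next, and Sspo (-0.95 ± 0.18) and Chdh (-0.92 ± 0.19) changed least. All 10 genes had no overlap between the groups, as did 25.1% of all genes tested in that direction.

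In the recovering callosum all 10 were above the 12wk libraries at each time, and the 3 recovery comparisons share the same 2 libraries at 12wk. The median difference over the genes was 1.42 at 12+4wk, 1.43 at 12+8wk and 1.86 at 12+12wk. Non-overlap in this direction held for 10 of 10 genes at each time, and for 25.1%, 14.3% and 24.3% of all genes tested. Abca8a stood out at 12+4wk. It had -0.01 and 0.04 at 12+4wk, 0.58, -0.08 and 0.68 at 12+8wk, and 0.79 and 0.97 at 12+12wk. Its 12+4wk libraries still lay below all 3 naive libraries. Sspo had 1.29 and 0.86 at 12+4wk, 0.95, 0.68 and 1.00 at 12+8wk, and 1.33 and 1.39 at 12+12wk, against 0.79, 0.33 and 0.23 in naive mice. Both 12+12wk libraries lay above every naive library for Sspo only, by 0.91 ± 0.18 on average, and the other 9 genes overlapped naive levels, from -0.11 ± 0.20 for Pdlim2 to 0.61 ± 0.23 for Carns1. The share of all genes whose recovery libraries stood apart from naive libraries was not counted. Pdlim2 also had the smallest recovery, 0.92 ± 0.22 at 12+12wk over 12wk, and Ppp1r14a the largest, 2.16 ± 0.29. Without the 2 callosal libraries with raised Y-linked genes, all of these medians kept their sign and moved by less than the spread of the libraries. Marker lists of several cell types were higher in the same callosal libraries. The 30 mature oligodendrocyte genes had median differences from 12wk of 1.13 at 12+4wk, 0.91 at 12+8wk and 1.26 at 12+12wk. The 10 choroid plexus and ependymal genes had medians of 0.69, 0.28 and 0.61, and all 10 had a positive difference at 12+4wk and at 12+12wk. Their mean over the list ran from -0.18 to 0.12 at 12+4wk and from -0.16 to 0.20 at 12+12wk, against -0.91 to -0.67 at 12wk. The 10 astrocyte genes all had a positive difference at 12+4wk, with a median of 0.31. The part of these lists in the callosal values was not tested.

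**Figure D2:**
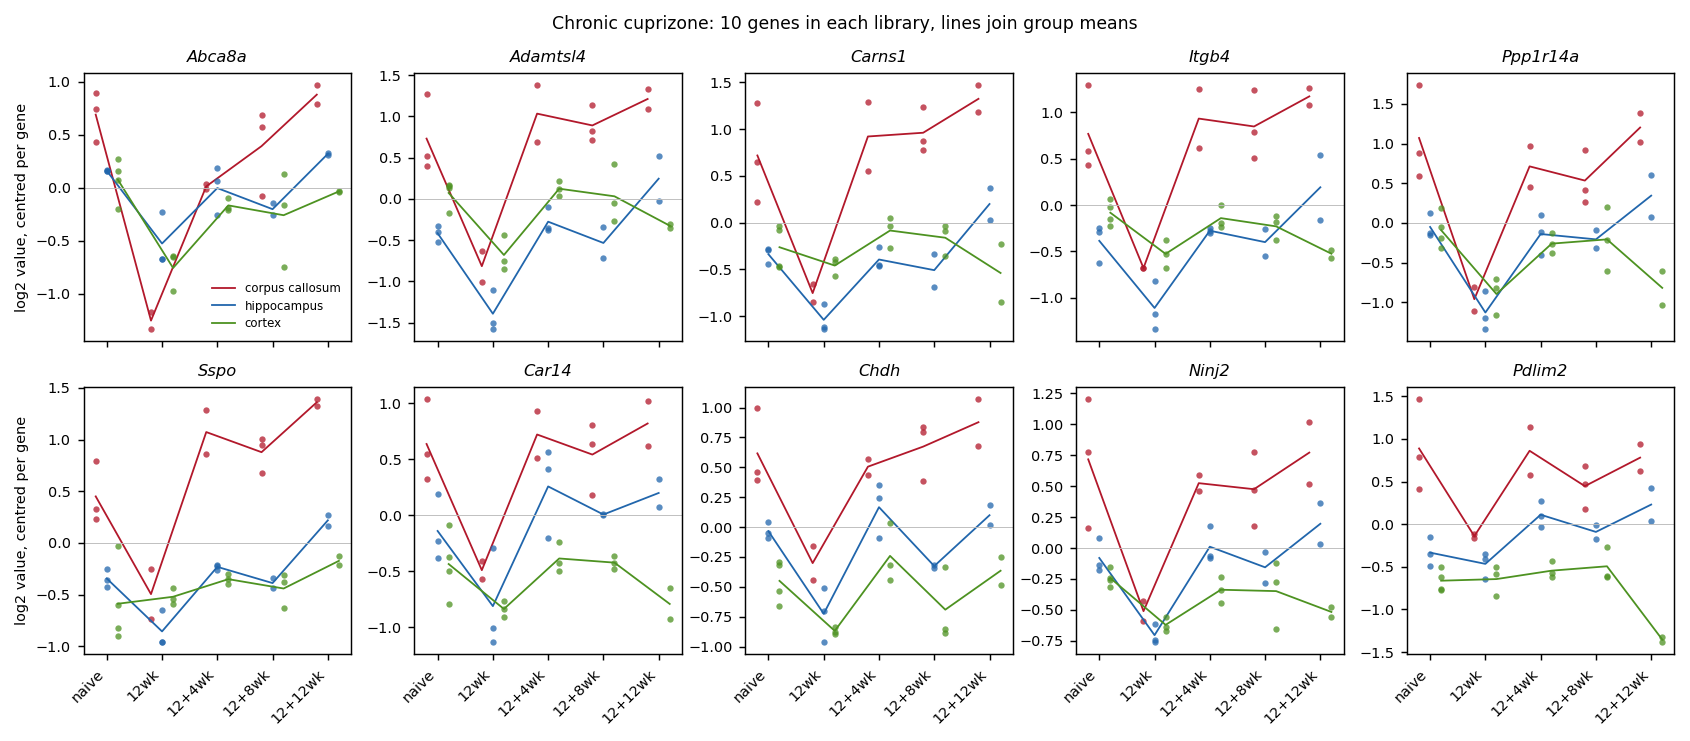
Log2 value, centred per gene, of each gene (one panel per gene) in each chronic library of callosum (red), hippocampus (blue) and cortex (green), by group from naive to 12+12wk, with lines through the group means. Callosal group means lie at or above the others outside the 12wk groups, although single libraries of Abca8a and Car14 cross, all 3 regions have a low point at 12wk for most genes, and the last cortical point falls away from the hippocampal one for Pdlim2, at -1.32 and -1.38.

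For hippocampus and cortex, limma was fitted to all 40 chronic libraries with a mean for each region and time. These tests, here and in the paragraphs below, cannot be taken as independent of the choice of the genes. Their counts and p-values for the 10 therefore describe the chosen genes, also where the share of all genes stands beside them. In hippocampus all 10 genes were lower at 12wk than in naive mice, with a median difference of -0.69, against -0.01 over all genes tested. None of the 10 passed the adjusted threshold, and 0% of all genes did in that direction, although 9 of the 10 had an unadjusted p under 0.05 (limma, lowest adjusted p = 0.13). Adamtsl4 was -1.10, -1.57 and -1.50 at 12wk, against -0.52, -0.33 and -0.40 in naive mice, a difference of -0.98 ± 0.20. Ppp1r14a was -0.86, -1.33 and -1.20 at 12wk, against -0.15, 0.13 and -0.13 in naive mice, a difference of -1.08 ± 0.24. Pdlim2 was the flattest, at -0.34, -0.65 and -0.40, against -0.50, -0.35 and -0.15 (-0.13 ± 0.18). The groups did not overlap for 8 of the 10, all but Car14 and Pdlim2, against 10.9% of all genes tested. Without 12wk replicate 1, the highest of its group for 10 of the 10 genes, 1 of the 10 was called.

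Hippocampal recovery was clearest at 12+12wk, where 9 of the 10 genes rose over 12wk and 1.41% of all genes tested did (limma, adjusted p below 0.05). Adamtsl4 rose to 0.51 and -0.02 at 12+12wk, against -1.10, -1.57 and -1.50 at 12wk, by 1.64 ± 0.23 (limma, adjusted p = 0.00016). Ppp1r14a rose to 0.61 and 0.08, against -0.86, -1.33 and -1.20, by 1.47 ± 0.26. Sspo rose to 0.17 and 0.27, against -0.65, -0.96 and -0.96, by 1.08 ± 0.18, and its 2 recovered libraries were the closest to each other after those of Abca8a. Itgb4 (1.30 ± 0.22), Carns1 (1.24 ± 0.23), Car14 (1.01 ± 0.24), Ninj2 (0.90 ± 0.19), Abca8a (0.85 ± 0.20) and Chdh (0.82 ± 0.19) rose too, and the difference of Pdlim2 was 0.70 ± 0.20 (limma, adjusted p = 0.062). All 10 genes had both 12+12wk libraries above all 3 at 12wk, and the share of all genes that did so was not counted. The count of 9 called genes rests on 12+12wk replicate 1, one of the libraries with mixed sex-linked genes. Without it 2 of the 10 were called, with 5 genes in all called higher and 12 lower, and the median difference was 0.92 in place of 1.04. Without all such libraries, 1 library a group was left and 0 of 10 were called, at a median of 1.17. Fitted on hippocampal libraries alone, 10 of 10 were called, with 1113 genes in all called higher and 1146 lower.

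At 12+4wk the hippocampal median difference from 12wk was 0.77, and 2 of the 10 genes rose, Adamtsl4 (1.11 ± 0.20) and Chdh (0.89 ± 0.17), among 0.041% of all genes tested (limma, adjusted p = 0.034 for both). Chdh, the choline enzyme, was -0.09, 0.35 and 0.24 at 12+4wk, against -0.51, -0.96 and -0.71 at 12wk. No 12wk library reached a 12+4wk library. Both calls were lost without 12wk replicate 2 or 3, without 12+4wk replicate 2 or 3 (0 of 10 each), and in a fit on hippocampus alone. The choroid plexus and ependyma list varied most among these libraries, its mean over 10 genes running from 0.44 to 2.50 at 12+4wk, against -0.25 to 1.18 at 12wk, and its part in these values was not tested. Car14 had -0.21, 0.41 and 0.57 at 12+4wk, against -0.29, -1.13 and -1.01 at 12wk (1.07 ± 0.22, limma, adjusted p = 0.060). At 12+8wk the median difference was 0.54, and 0 of the 10 were called, as were 0% of all genes, with 8 of the 10 at an unadjusted p under 0.05 (limma). Against naive mice, 12+12wk hippocampus called none of the 10 and 0.106% of all genes, with 5 of the 10 at an unadjusted p under 0.05 (limma) and differences from 0.13 ± 0.19 for Chdh to 0.66 ± 0.23 for Adamtsl4. Fitted on hippocampus alone, 1 of the 10 was called, Sspo at 0.56, with 143 genes in all called higher and 235 lower.

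**Figure D3:**
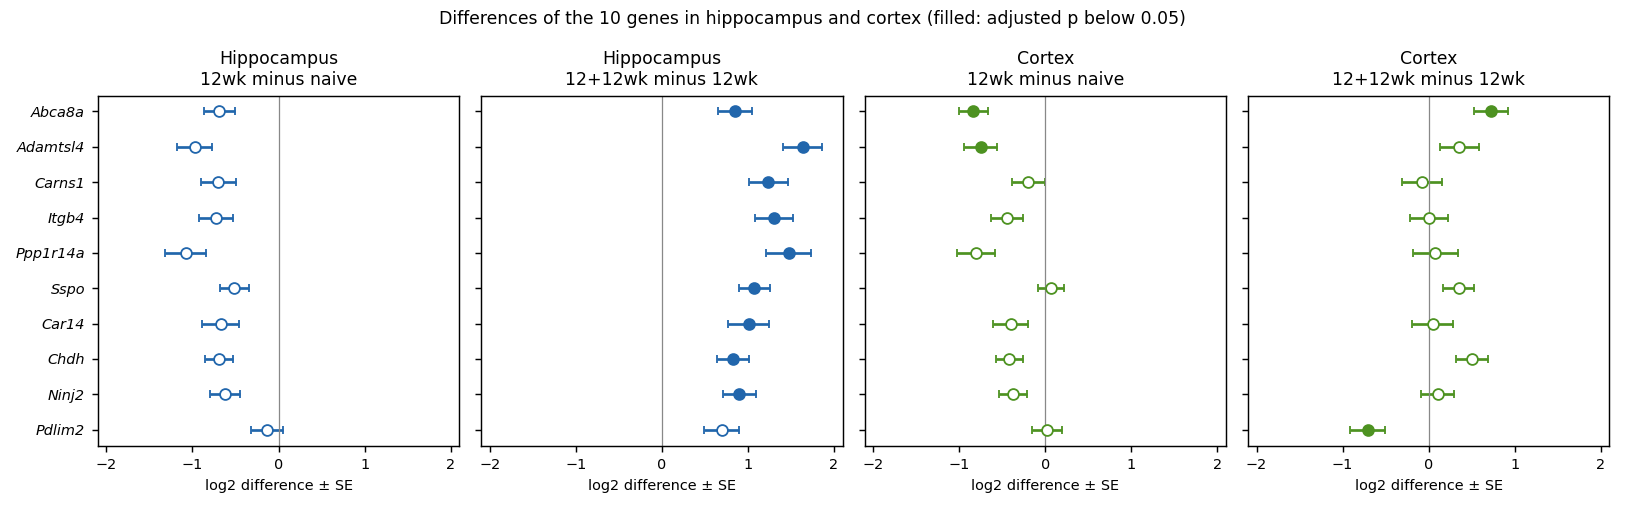
Log2 difference ± SE of each gene in hippocampus (blue) and cortex (green), for 12wk minus naive and for 12+12wk minus 12wk, with filled points at a limma adjusted p below 0.05. Hippocampal recovery has 9 filled points, all to the right, while cortical recovery has 2, Abca8a at 0.72 and Pdlim2 at -0.71.

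In cortex at 12wk the median difference from naive mice was -0.41 over the 10 genes and -0.01 over all genes tested. Abca8a fell to -0.65, -0.97 and -0.65 at 12wk, against 0.16, -0.20, 0.07 and 0.27 in naive mice, by -0.83 ± 0.17 (limma, adjusted p = 0.019). Adamtsl4 fell to -0.44, -0.75 and -0.85, against 0.13, 0.16, 0.17 and -0.17, by -0.75 ± 0.19 (limma, adjusted p = 0.049). These 2 of 10 calls compare with 0.539% of all genes tested in that direction. Ppp1r14a (-0.80 ± 0.22), Itgb4 (-0.44 ± 0.18), Chdh (-0.42 ± 0.16), Car14 (-0.40 ± 0.20), Ninj2 (-0.38 ± 0.16) and Carns1 (-0.20 ± 0.19) did not pass, and Sspo (0.07 ± 0.15) and Pdlim2 (0.02 ± 0.17) were near 0. Non-overlap in the lower direction held for 6 of the 10 and for 7.66% of all genes. The calls depended on the libraries: 1 of the 10 remained called without 12wk replicate 1 or naive replicate 2 or 3, and 0 without 12wk replicate 2 or 3, without naive replicate 4, or in a fit on cortex alone.

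Cortical recovery was uneven among the 10. At 12+4wk the differences from 12wk ran from 0.10 ± 0.18 for Pdlim2 to 0.80 ± 0.20 for Adamtsl4, and at 12+8wk from 0.08 ± 0.16 for Sspo to 0.71 ± 0.20 for Adamtsl4. None of the 10 passed at either time (limma), where 0.0176% and 0.0586% of all genes were called higher and where 5 and 3 of the 10 had an unadjusted p under 0.05. At 12+12wk Abca8a rose to -0.04 and -0.03, against -0.65, -0.97 and -0.65 at 12wk, by 0.72 ± 0.20 (limma, adjusted p = 0.036). Pdlim2 fell to -1.32 and -1.38, against -0.58, -0.50 and -0.84, by -0.71 ± 0.20 (limma, adjusted p = 0.043). The 2 genes thus moved apart in the same libraries, beside 2.52% of all genes called higher and 2.17% called lower. Itgb4 (0.00 ± 0.22), Car14 (0.04 ± 0.24), Ppp1r14a (0.08 ± 0.26) and Carns1 (-0.08 ± 0.23) differed least from 12wk. Neither call held in a fit on cortex alone, where 2 genes in all were called higher and 11 lower, and 0 or 1 of the 10 were called whichever of the 5 libraries was left out (0 without 12wk replicate 1 or 2 or either 12+12wk library, 1 without 12wk replicate 3). Against naive mice, 12+12wk cortex called none of the 10 and 0.229% of all genes (limma), with 4 of the 10 at an unadjusted p under 0.05 and Ppp1r14a (-0.73 ± 0.25) and Pdlim2 (-0.69 ± 0.19) the lowest.

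The effect of 12 weeks of cuprizone was not shown to differ between hippocampus and cortex. The hippocampal minus the cortical difference ran from -0.58 ± 0.22 for Sspo to 0.15 ± 0.25 for Abca8a, and 0 of the 10 passed, as did 0% of all genes (limma), with 1 of the 10 at an unadjusted p under 0.05. The difference between the regions at 12+12wk over 12wk was tested after the data were seen. Pdlim2 (1.40 ± 0.29), Ppp1r14a (1.40 ± 0.37), Carns1 (1.32 ± 0.32), Itgb4 (1.30 ± 0.31) and Adamtsl4 (1.28 ± 0.32) changed more upward in hippocampus than in cortex, 5 of the 10 against 2.12% of all genes called in that direction (limma, adjusted p below 0.05). For Pdlim2 the cortical fall was called and the hippocampal difference was not. Sspo (0.73 ± 0.26), Car14 (0.96 ± 0.34), Ninj2 (0.79 ± 0.28) and Chdh (0.32 ± 0.26) did not pass, and Abca8a had 0.12 ± 0.28. Without hippocampal 12+12wk replicate 1, 0 of the 10 were called at a median of 0.89, and without cortical 12+12wk replicate 2, 3 were.

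In naive mice the callosum had higher values of all 10 genes than the other regions did, which is a description, since naive callosal values were used to choose them. Naive callosum minus naive cortex ran from 0.61 ± 0.17 for Abca8a to 1.55 ± 0.17 for Pdlim2, in a contrast where 21.7% of all genes were called higher (limma). Naive callosum minus naive hippocampus ran from 0.53 ± 0.18 for Abca8a to 1.22 ± 0.18 for Pdlim2, where 8.89% of all genes were called higher. Pdlim2 was 1.47, 0.78 and 0.41 in callosum, against -0.50, -0.35 and -0.15 in hippocampus and -0.76, -0.62, -0.50 and -0.78 in cortex. Abca8a was 0.90, 0.75 and 0.43 in callosum, against 0.17, 0.15 and 0.16 in hippocampus and 0.16, -0.20, 0.07 and 0.27 in cortex. For both genes every callosal library lay above every library of the other regions, and naive hippocampus minus naive cortex did not pass (0.33 ± 0.17 for Pdlim2 and 0.08 ± 0.17 for Abca8a). Between naive hippocampus and naive cortex, Chdh was higher by 0.42 ± 0.16 (limma, adjusted p = 0.034), where 20.9% of all genes were, and Adamtsl4 was lower, by -0.49 ± 0.19 (limma, adjusted p = 0.041), where 19.7% were. Each is 1 gene in 10, below the share of all genes. Leaving out any of the 3 naive hippocampal libraries or naive cortex replicate 1 left 0 of 10 called, and leaving out naive cortex replicate 2 or 4 left 1.

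Across the 40 chronic libraries, each taken as its deviation from the mean of its region, the 10 genes varied together, as their choice for a shared course favours. The correlation between pairs of them ranged from 0.45 to 0.95 with a median of 0.79, over libraries that share groups and processing. Itgb4 was closest to the mean of the other 9 (r = 0.97), then Adamtsl4 (0.95) and Carns1 (0.94), and Pdlim2 was farthest (0.73). The fit to the others was lower in cortex than elsewhere for Sspo (0.07 in cortex, 0.87 in callosum, 0.92 in hippocampus), Pdlim2 (0.27, 0.87 and 0.78) and Abca8a (0.43, 0.89 and 0.88). Among the 8 other genes most like the mean of the 10 were Fa2h, which makes hydroxylated myelin lipids (r = 0.96), Nipal4 (0.96), Efhd1 (0.95), Desi1 (0.95), the myelin gene Mal (0.95) and Mobp (0.94). Taken one at a time, Abca8a was closest to Anln (0.90), Adamtsl4 to Fa2h (0.96), Carns1 to Itgb4 (0.94), Itgb4 to Adamtsl4 (0.95), Sspo to Plxnb3 (0.89), Car14 to Tmem98 (0.95), Chdh to Nipal4 (0.89), Ninj2 to Ppp1r14a (0.95) and Pdlim2 to Cnp (0.90). Nothing was fitted to these values, which are a description with n = 40.

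**Figure D4:**
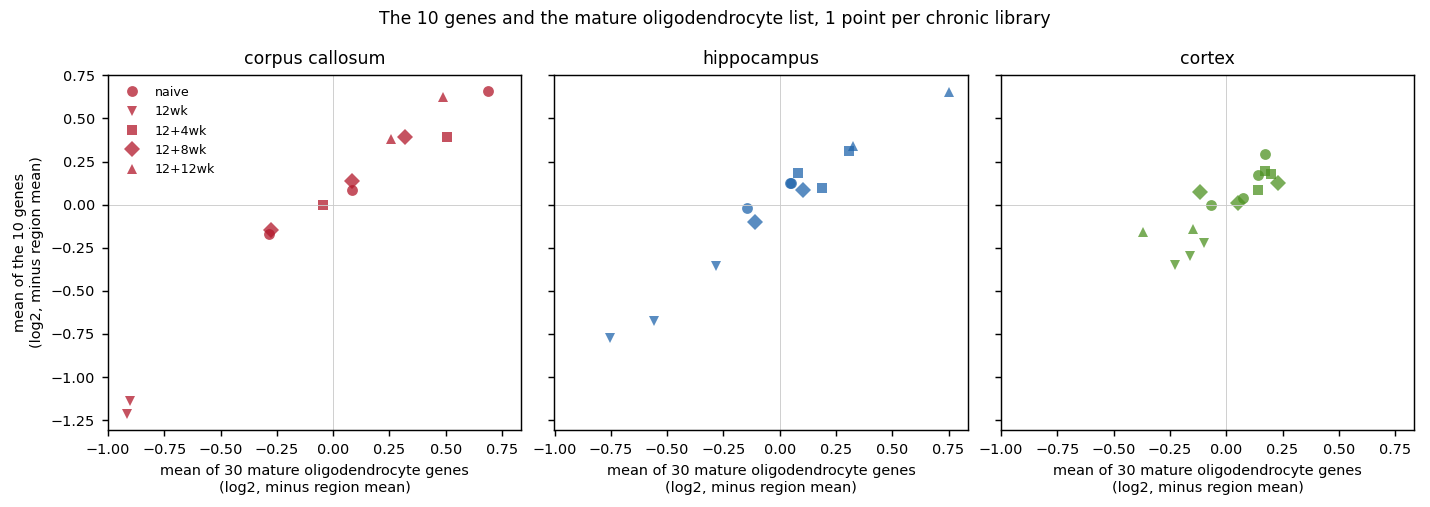
Mean of the 10 genes against the mean of 30 mature oligodendrocyte genes in each chronic library, both as log2 deviations from the region mean, with one panel per region and a symbol per group. The points rise together in every region, and the 12wk libraries sit lowest in callosum and hippocampus.

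The mean of 30 mature oligodendrocyte genes, none of them among the 10, followed the mean of the 10 with r = 0.97 over the 40 libraries, against 0.21 for 10 newly formed oligodendrocyte genes, -0.03 for 10 progenitor genes, -0.17 for 14 microglial genes, 0.48 for 10 astrocyte genes, -0.35 for 10 neuronal genes, 0.02 for 12 vascular and fibroblast genes and 0.39 for 10 choroid plexus and ependymal genes. In hippocampus at 12+12wk over 12wk, 24 of the 30 mature oligodendrocyte genes rose and none fell, with a median of 0.96 beside 1.04 for the 10 genes, and Hapln2 (1.56 ± 0.25) and Fa2h (1.56 ± 0.25) were among them (limma, adjusted p below 0.05). Without 12+12wk replicate 1, 2 of the 30 were called, at a median of 0.74. In cortex over the same span 0 of the 30 were called, at a median of -0.08 beside 0.09 for the 10. In naive mice all 30 were higher in callosum than in cortex and than in hippocampus. In hippocampus the library means of the list ran from -0.01 to 0.41 at 12+12wk, against -1.09 to -0.62 at 12wk, and its part in the values of the 10 genes was not tested. Of the progenitor list none of 10 was called at 12wk against naive mice in either region.

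The stress response list moved the other way. Its 12 genes, among them Gdf15, Trib3 and Cyb5r2, which the study lists among its shared genes, had r = -0.62 to the mean of the 10. Nupr1 (1.65 ± 0.31) and Atf5 (1.40 ± 0.25), both induced in stressed cells, rose at 12wk over naive hippocampus, 2 of the 12 called there and 0.0176% of all genes (limma, adjusted p below 0.05). Over all genes 3 were called higher there, and 0 with no filter, with a replicate block or in a fit on hippocampus alone. With library weights 414 were. In hippocampus at 12+12wk over 12wk 4 of the 12 fell, beside 1.16% of all genes, Atf5 by -1.40 ± 0.28 and Gdf15, a stress-induced cytokine, by -1.01 ± 0.22, and none without 12+12wk replicate 1. In cortex 3 of the 12 rose at 12wk, beside 0.416% of all genes, Cyb5r2 by 1.23 ± 0.22 and Gdf15 by 0.99 ± 0.19, and 3 fell at 12+12wk over 12wk, beside 2.17% of all genes, Cyb5r2 by -1.18 ± 0.26 (limma, adjusted p below 0.05). In a fit on cortex alone 10 genes in all were called higher at 12wk and 11 lower at 12+12wk over 12wk. Trib3 did not pass in either region (0.95 ± 0.25 in hippocampus and 0.83 ± 0.24 in cortex at 12wk). Erbb3, a neuregulin receptor gene that the study also lists as shared, differed by -0.61 ± 0.18 at 12wk in hippocampus and by -0.26 ± 0.17 in cortex, and neither passed (limma). Of the 14 microglial genes 3 rose at 12wk and 3 fell at 12+12wk over 12wk in cortex, against the same 0.416% and 2.17% of all genes, Clec7a by 1.35 ± 0.24 and by -1.92 ± 0.29 and Itgax by 1.61 ± 0.23 and by -1.75 ± 0.27, and none was called in hippocampus (limma).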

How the data were processed

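Bulk RNA-seq of 7 acute and 40 chronic libraries was used as deposited. Per the labels and the methods, the authors aligned reads with TopHat2 2.0.13 to GRCm38/mm10, normalized with DESeq2 and deposited log2 values. The acute log2 values are not centred, and the deposited chronic log2 values are centred per gene. Depth is unknown, since no counts were used here. Names that had turned into dates or numbers, 27 in each table, were dropped. Chronic genes with the lowest value in more than 10 libraries and acute genes with a mean linear value under 10 were left out. Differences came from limma 3.58.1 in R 4.3.3, with 1 mean per region and time over all 40 chronic libraries (Benjamini-Hochberg adjusted p below 0.05 over all genes tested), and with a mean-variance trend in the acute table. Callosal values of the 10 genes were used to choose them and are given without a test.

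The 10 genes, the marker lists and the tests were chosen with earlier results of these data known, and whether hippocampal or cortical values were seen in the choice is not recorded. Besides the 10 genes, the named genes were the other 5 that the study lists as shared, the 8 most like the 10 over the chronic libraries, the closest gene of each, and up to 3 of each list by their difference in hippocampus at 12wk. Alternatives were other filters, variance models, library weights, quantile normalization, covariates, a replicate block, a correction for transcript length and GC content (known for 97.1% of chronic and 94.1% of acute genes), and leaving out libraries. The fit on 1 region alone and the test of the regional difference in recovery were added after the data were seen. Some genes that these rules name are not reported here.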

Additional observations from a re-analysis of the deposited data

Results flagged for a closer look

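In naive cortex, replicate 4 stood apart from the others for Adamtsl4, with -0.17, against 0.13, 0.16 and 0.17 in replicates 1, 2 and 3, and the gap was 0.877 of the range of the group. This group of 4 was the only one large enough for the test, which was run on 10 genes, and chance flags about 1 in 20.

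The change at 12+12wk over 12wk differed between hippocampus and cortex for 5 of the 10 genes, by a test of the difference itself (limma, adjusted p below 0.05) that was added after the data were seen. The hippocampal minus the cortical change was 1.28 for Adamtsl4, 1.32 for Carns1, 1.30 for Itgb4, 1.40 for Ppp1r14a and 1.40 for Pdlim2. The call for all 5 was lost without hippocampal 12+12wk replicate 1, when 0 of the 10 were called.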

How the results depend on the processing

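Every callosal median over the 10 genes kept its sign under quantile normalization, the length and GC correction and without libraries with mixed sex-linked genes, and quantile normalization moved the recovery medians to 1.77 (12+4wk), 1.78 (12+8wk) and 2.08 (12+12wk). Leaving out 1 library gave -1.56 to -1.08 for 12wk minus naive, 1.30 to 1.60, 1.31 to 1.55 and 1.74 to 1.89 for 12+4wk, 12+8wk and 12+12wk minus 12wk, 0.12 to 0.46 for 12+12wk minus naive, 1.65 to 2.27 for acute 5+1wk minus 3wk and -1.80 to -1.45 for acute 3wk minus naive. The order of the sample descriptions moved the acute medians to 1.12 for 5+1wk minus 3wk and turned 3wk minus naive to 0.24. The cause of the changes in calls below was not tested.

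Of the 10 genes in hippocampus, array weights, whose fit stopped before it converged, called 9 at 12wk minus naive, 10, 7 and 10 at 12+4wk, 12+8wk and 12+12wk minus 12wk, and 3 at 12+12wk minus naive. Quantile normalization called 1, 5, 0, 10 and 2 in the same order. At 12+4wk minus 12wk 0 were called with no filter, with the replicate block, without libraries with mixed sex-linked genes, with only the groups compared and with only the region's libraries. At 12+12wk minus 12wk 5 were called with only the groups compared and 0 without the mixed libraries, and at 12+12wk minus naive 1 with only the region's libraries. Leaving out 1 library gave 0 to 1 at 12wk minus naive, 0 to 3, 0 and 2 to 9 at the 3 recovery times and 0 at 12+12wk minus naive. Without mixed libraries 12+8wk could not be fitted, since both of its libraries were mixed. Over all genes, array weights called 414 higher and 600 lower at 12wk minus naive, in place of 3 and 0. At 12+4wk minus 12wk these were 188 and 29, in place of 7 and 0. At 12+8wk they were 352 and 412, in place of 0 and 0. At 12+12wk minus naive they were 116 and 298, in place of 1 and 17. Quantile normalization called 5 and 2, 22 and 3, 11 and 10, and 67 and 113 in these comparisons.

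In cortex, 12wk minus naive gave 1 with no filter, array weights or sex as a covariate, and 0 with quantile normalization, the replicate block, without mixed libraries, with only the groups compared or with only the region's libraries. Array weights called 3 at 12+4wk and 4 at 12+8wk minus 12wk. At 12+12wk minus 12wk 1 was called with array weights, sex as a covariate or the replicate block, and 0 with quantile normalization, the length and GC correction, without mixed libraries, with only the groups compared or with only the region's libraries. Leaving out 1 library gave 0 to 2 at 12wk minus naive, 0 at 12+4wk and 12+8wk, 0 to 1 at 12+12wk minus 12wk and 0 at 12+12wk minus naive. Over all genes, array weights called 51 higher and 61 lower at 12+4wk minus 12wk, in place of 3 and 6. At 12+8wk minus 12wk these were 2125 and 1842, in place of 10 and 11.

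The regional difference at 12+12wk over 12wk gave 8 with array weights, 3 with the replicate block or the length and GC correction, 0 without mixed libraries, and 0 to 6 with 1 library left out. The regional difference of the 12wk effect stayed at 0 under all of these. For naive hippocampus minus naive cortex the count was 0 to 2 with 1 library left out and 0 with the replicate block or without mixed libraries. For the 8 genes most like the 10, the median r of 0.95 became 0.90 as Spearman rho, 0.98 in callosum alone and 0.81 in cortex alone.

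Some differences close to 0 turned sign. For 12wk minus naive in cortex, Sspo was -0.00964 with the replicate block and -0.0374 with the length and GC correction (-0.0372 to 0.25 with 1 library left out), and Pdlim2 was -0.0192 and -0.0205 (-0.0518 to 0.12). For 12+12wk minus 12wk in cortex, Carns1 was 0.0369 with the length and GC correction (-0.39 to 0.23 with 1 library left out) and Itgb4 was -0.0461 with array weights (-0.0765 to 0.0788), and with 1 library left out Ppp1r14a ran from -0.13 to 0.29 and Car14 from -0.0929 to 0.18. For naive hippocampus minus naive cortex, the replicate block gave -0.0948 for Abca8a (-0.00768 to 0.15 with 1 library left out), 0.0972 for Carns1 (-0.15 to 0.00204) and -0.00137 for Ppp1r14a (-0.0474 to 0.14), quantile normalization gave -0.0176 for Ppp1r14a and -0.0337 for Sspo, and the length and GC correction gave -0.17 for Ppp1r14a and -0.11 for Ninj2. None of these differences was called under any alternative, except that of Sspo between the naive regions, called at 0.82 with the length and GC correction and at 0.43 without naive cortex replicate 3 (limma, adjusted p = 0.0029 and 0.0096).

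Over all genes, 12+12wk minus 12wk in hippocampus gave 241 higher and 198 lower, against 1113 and 1146 with only the region's libraries, 1183 and 1356 with array weights, 522 and 698 with quantile normalization and 139 and 103 with the replicate block. In cortex it gave 429 and 370, against 2 and 11 with only the region's libraries, 0 and 7 with only the groups compared, 2 and 2 with quantile normalization, 279 and 135 with array weights, 164 and 199 with the length and GC correction and 21 and 47 without mixed libraries. In hippocampus 0 and 0 were left without mixed libraries. At 12wk minus naive in cortex the counts were 71 and 92, against 10 and 1 with only the region's libraries, 4 and 0 with only the groups compared, 5 and 2 with quantile normalization, 10 and 9 with array weights, 14 and 2 with the replicate block and 13 and 3 without mixed libraries. For the regional difference at 12+12wk over 12wk, array weights gave 785 and 1324, in place of 361 and 661.

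The same replicate number in 2 groups of a region gave a median correlation of deviations of 0.01 in callosum, -0.01 in hippocampus and 0.03 in cortex. Single pairs ran from -0.30 to 0.40, from -0.67 to 0.25 and from -0.33 to 0.23. A median over such a range cannot show whether the numbers mark a shared source. With the replicate block 8 of the 10 genes were called at 12+12wk minus 12wk in hippocampus, in place of 9. Groups of 2 to 4 libraries, an unknown depth, groups that differ in age, the 12+12wk groups labelled female and the mixed hippocampal libraries limit all of these tests.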
